A study of Mus musculus with 9 samples.

Results

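Lyz1 and Lyz2 encode the lysozymes of the mouse, and these 2 of the 16921 genes in the table of ribosome footprints were selected by their symbols, because of values measured in these same libraries. Ribosome profiling (RiboSeq) counts the stretches of mRNA that ribosomes protect from nuclease, so that a footprint count follows both the amount of an mRNA and the number of ribosomes on it. The 9 libraries were prepared from bone marrow-derived macrophages (BMDMs) labelled as deficient in tristetraprolin (TTP, gene Zfp36) and immortalized with the oncogenes Myc and Ras, and 3 libraries each came from cells that carried a tetracycline-inducible GFP, GFP-TTP or GFP-TTP-AA. GFP-TTP-AA has alanines in place of serines that are phosphorylated through the p38 MAPK pathway. All cells, the GFP-only controls included, had received 1 µg/ml doxycycline for 6 h and 1 µg/ml LPS for 1 h, so that neither an unstimulated nor an uninduced condition is part of the comparisons. Each condition is a separately transduced cell line, and an effect of the expressed protein and a difference between the lines cannot be told apart. Footprints on Zfp36, counted after scaling as described below, were between 436 and 500.3 in the GFP-only libraries, between 882 and 1008 in the GFP-TTP libraries and between 1456 and 1670.5 in the GFP-TTP-AA libraries. That both TTP constructs lay above GFP-only follows the labels, which give no order between GFP-TTP and GFP-TTP-AA. The paper reports similar protein amounts of both constructs by western blot. The GFP-only libraries, which carry no TTP construct, were not at 0 as a label of full deficiency would have it. Which part of the gene is deleted is not given in the sources used here. In such bulk libraries, fewer cells with an mRNA and less of that mRNA per cell cannot be told apart either.

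Lysozyme cuts the sugar backbone of peptidoglycan, the polymer of the bacterial cell wall, and the fragments that it releases are read by sensors such as NOD2. The mouse has a pair of neighbouring genes for it. Lyz2 encodes the M form, which is made in large amounts by macrophages and other myeloid cells and whose promoter drives a widely used myeloid Cre line, and Lyz1 encodes the P form, best known from the Paneth cells of the small intestine. TTP binds AU-rich elements in the 3′UTR of mRNAs and leads to their decay.

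Both genes are transcribed from the minus strand of chromosome 10 (build GRCm38, mm10). Lyz1 (ENSMUSG00000069515) spans chr10:117287797-117292868 and Lyz2 (ENSMUSG00000069516) spans chr10:117277331-117282321, with 5475 bases between them and 4 exons in each. Their coding sequences have 447 bases each including the stop codon, of which 22 differ (95.1% identical). These differences fall on 18 of the 148 codons, and 12 of these codons encode another amino acid. Exon 1 holds 14 of the differing bases. Its coding parts are shown from the reference genome because they are the stretch by which a footprint can best be assigned to one gene or the other. Capitals mark the bases that differ, and the stretches are chr10:117292703-117292838 for Lyz1 and chr10:117282107-117282242 for Lyz2, each written 5′ to 3′ along the mRNA.
Lyz1 exon 1: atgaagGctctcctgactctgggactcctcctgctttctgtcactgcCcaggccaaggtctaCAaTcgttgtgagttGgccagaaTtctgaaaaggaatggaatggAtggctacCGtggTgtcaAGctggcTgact
Lyz2 exon 1: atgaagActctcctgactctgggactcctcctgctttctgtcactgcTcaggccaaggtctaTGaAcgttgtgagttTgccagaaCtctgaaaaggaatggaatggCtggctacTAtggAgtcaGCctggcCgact
Exon 2 holds 6 differing bases and exon 4 holds 2, which are A394G and A399C when positions are counted from 1 at the first base of the start codon and the base of Lyz1 is given first. Exon 3 holds 0. It is shown once, as chr10:117289119-117289197 of Lyz1 and chr10:117278643-117278721 of Lyz2 have the same bases, and no footprint inside it can be assigned to either gene.
Exon 3 of both genes: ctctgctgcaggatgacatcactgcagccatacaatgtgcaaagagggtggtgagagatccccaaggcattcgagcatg

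The longest run that the coding sequences share has 118 bases, from position 276 to 393, and the next has 60 bases, from position 211 to 270. A ribosome footprint has a length of about 28 to 30 bases. Of the 420 windows of 28 bases in the coding sequence of Lyz2, 177 (42.1%) are also present without mismatch in the Lyz1 transcript, and 329 (78.3%) are present with up to 2 mismatches. The remaining 91 windows (21.7%) differ from Lyz1 at more than 2 bases, and the plot of mismatches along the coding sequence shows that they start in exon 1 and late in exon 2. With windows of 30 bases, 167 of 418 (40.0%) are identical. Of the 663 distinct 28-base windows of both genes together, 0 occur in any of 141765 annotated transcripts of other genes. Copies elsewhere in the genome, where reads could also align, were not searched.

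**Figure D1:**
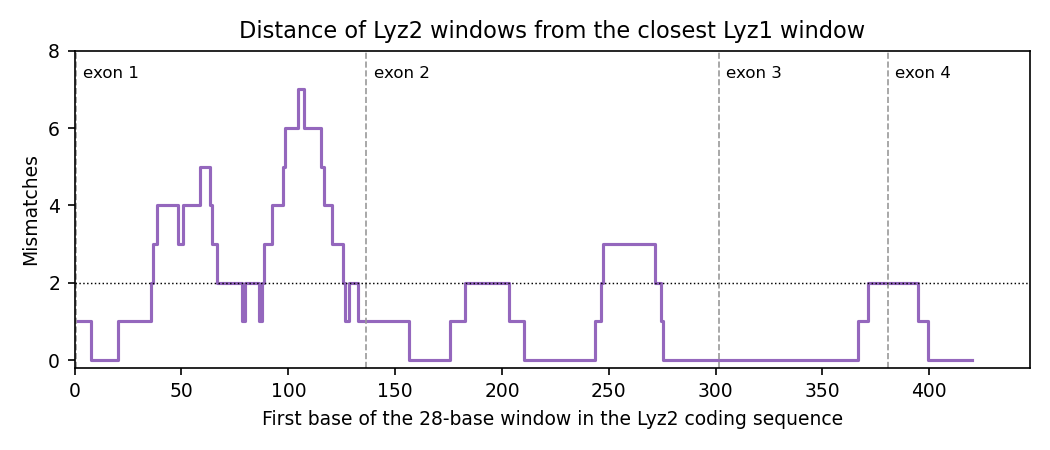
The fewest mismatches (y axis) between each 28-base window of the Lyz2 coding sequence and any window of the Lyz1 transcript are plotted against the first base of the window (x axis, bases); dashed lines mark exon starts and the dotted line marks 2 mismatches. Windows with more than 2 mismatches, at most 7, start in exon 1 and late in exon 2, and a long stretch around exon 3 has 0 mismatches.

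The values by library are the counts that the authors' model fitted for each library, divided here by the size factor of that library, and are called scaled counts. As they are fitted, they hold no residual spread between replicates, and the difference between replicate numbers has the same ratio in each condition. Lyz1 had scaled counts of 2799, 3757 and 3736 in the libraries of GFP-only macrophages (replicates 1, 2 and 3). It had 1091, 1459.7 and 1448 in GFP-TTP macrophages, and 788, 1051 and 1046 in GFP-TTP-AA macrophages. All GFP values lay above all values of the other conditions, and the GFP-TTP-AA values lay below those of GFP-TTP. As the replicate ratios are the same in each condition by the fit, this separation is not an agreement of independent measurements.

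Lyz2 had scaled counts of 72768, 63354.5 and 56941 in GFP-only macrophages. It had 52457.5, 45534 and 40825 in GFP-TTP macrophages, and 81424, 70434 and 63357 in GFP-TTP-AA macrophages. For Lyz2 the fitted values of GFP-TTP lay below all others, whereas those of GFP and GFP-TTP-AA overlapped. The genes therefore had different orders of the conditions, with Lyz1 highest in GFP-only and Lyz2 highest in GFP-TTP-AA macrophages.

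**Figure D2:**
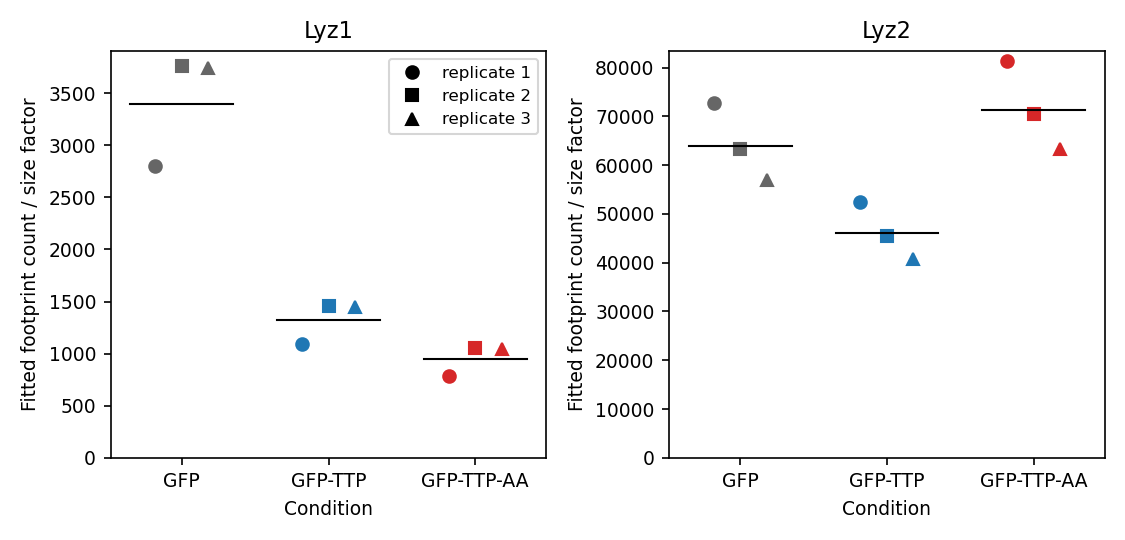
Scaled counts (fitted footprint count divided by the size factor, y axes from 0) of Lyz1 (left) and Lyz2 (right) in each of the 9 libraries by condition (x axes); symbols give the replicate and the black line the geometric mean of the 3 libraries. The fitted values of Lyz1 fall into 3 ranges with GFP on top, and Lyz2 is lowest in GFP-TTP.

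Replicate 1 had the lowest values of Lyz1 and the highest of Lyz2, by a ratio that the fit makes the same in each condition. It was below the mean of replicates 2 and 3 by a log2 difference of -0.42 for Lyz1, and 4.29% of the 10103 genes with a mean scaled count of at least 10 had a lower difference. For Lyz2 the difference was 0.28, and 91.8% of these genes had a lower one, beside an SD of 0.23 over these genes. The replicate terms of Lyz2 were about evenly spaced, at 0.19, -0.02 and -0.17. Replicate 1 also had the largest size factor in each condition, with 1.51 with GFP, 1.94 with GFP-TTP and then 2.12 with GFP-TTP-AA. Beside condition, the authors' model had a term for library date only. The differences between replicate numbers are therefore the library date term of that fit. Whether depth has a part in that term was not tested.

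Lyz2 was the most densely read of the 9971 genes with a known coding length in all conditions. Per kilobase of coding sequence it had 144211 scaled counts in GFP-only macrophages, where Actb (cytoplasmic actin) came next with 73187. It had 103667 in GFP-TTP macrophages, followed by Spp1 (osteopontin) with 92911, and 160717 in GFP-TTP-AA macrophages, followed by Tmsb4x (thymosin beta 4) with 93641. Lyz2 took between 0.677% and 1.35% of the summed fitted counts of a library. Lyz1 had 7657 scaled counts per coding kilobase in GFP-only macrophages (rank 102), 2975 in GFP-TTP macrophages (rank 356) and 2147 in GFP-TTP-AA macrophages (rank 551), and took between 0.0131% and 0.0625% of a library. The more distant lysozyme-like genes in the table, known from the testis, were close to 0, with scaled counts of at most 4.23 for Lyzl4 and 0.0925 for Lyzl1.

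Because the genes share much of their sequence, Lyz1 was set against Lyz2 within each library, where the size factor has no influence. Lyz1 amounted to 3.85%, 5.93% and 6.56% of Lyz2 in the GFP-only libraries. It amounted to 2.08%, 3.21% and 3.55% in the GFP-TTP libraries and to 0.968%, 1.49% and 1.65% in the GFP-TTP-AA libraries. The conditions did not overlap, but the fit gives each condition the same replicate ratios, so that these are not independent measurements. From the levels, which are geometric means of the 3 libraries, Lyz2 was read 18.8-fold more than Lyz1 with GFP alone, 34.8-fold more with GFP-TTP and as much as 74.9-fold more with GFP-TTP-AA.

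**Figure D3:**
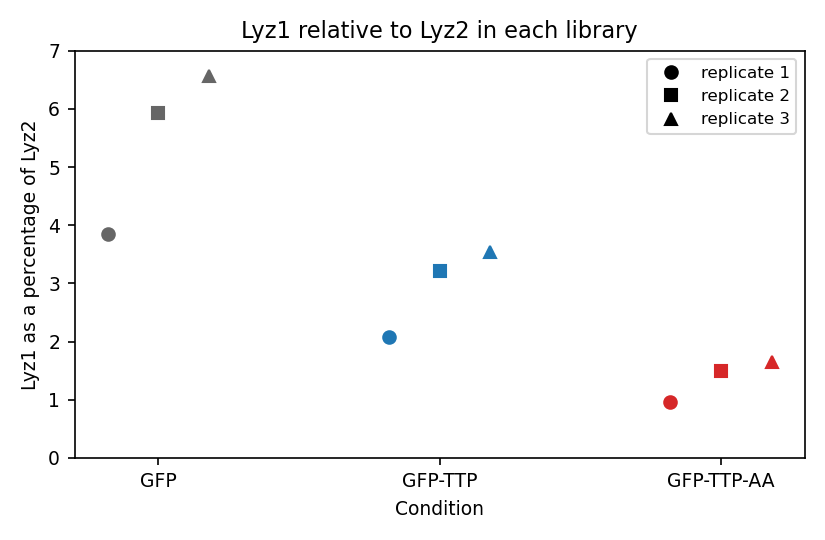
Lyz1 as a percentage of Lyz2 (y axis, from 0) in each of the 9 libraries by condition (x axis); symbols give the replicate. From fitted values, the percentage runs from 3.85% to 6.56% in GFP, from 2.08% to 3.55% in GFP-TTP and from 0.968% to 1.65% in GFP-TTP-AA.

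If footprints were spread evenly over the coding sequence, Lyz1 were silent and each identical 28-base footprint of Lyz2 had been split evenly between the genes, Lyz1 would stand at 26.7% of Lyz2, and at 25.0% with 30-base footprints. If such footprints had been counted for both genes, it would stand at 42.1% of Lyz2. The percentages from the fitted counts were below these values in all 9 libraries. The authors allowed up to 2 alignments per read, and how their counting treated a read with both is not given in the sources used here. A smaller leak of Lyz2 footprints into Lyz1, through windows with 1 or 2 mismatches, was tried as arithmetic. With 0.5% of Lyz2 subtracted from Lyz1 in every library, the log2 fold change of Lyz1 between GFP-TTP-AA and GFP became larger in size, -2.41 in place of -1.83. This direction was fixed by construction, as Lyz1 was a smaller percentage of Lyz2 in GFP-TTP-AA than in GFP. The true leak was not measured.

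Fold changes were computed from the levels and carry the standard errors (SE) of the authors' comparison tables. Since the genes were chosen on these values, they are given without a test and with their place among all genes tested. Between GFP-TTP and GFP, Lyz1 had a level of 1321 against 3399.6, a log2 fold change of -1.36 (SE 0.176, n = 3 libraries each), which was rank 16 from the lowest among the 9938 genes tested. Lyz2 had a level of 46028 against 64029.7, a log2 fold change of -0.48 (SE 0.12), at rank 307 from the lowest. Both lysozymes were thus lower in GFP-TTP than in GFP-only macrophages, Lyz1 by 2.57-fold and Lyz2 by 1.39-fold. In this comparison, 0.815% of the genes tested were higher and 1.29% were lower at an adjusted p under 0.05, and the SD of the log2 fold changes over all of them was 0.26.

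Between GFP-TTP-AA and GFP, the genes went apart. Lyz1 had a level of 953 against 3399.6, a log2 fold change of -1.83 (SE 0.176), which was the lowest among the 10103 genes tested. Lyz2 had a level of 71358 against 64029.7, a log2 fold change of 0.16 (SE 0.12), and 50.5% of the genes tested had a smaller change in size. A 3.57-fold lower Lyz1 thus stood beside a 1.11-fold higher Lyz2. The background was 1.74% of genes higher and 1.28% lower, with an SD of 0.27.

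With GFP-TTP-AA compared to GFP-TTP, the directions were opposite. Lyz1 had a log2 fold change of -0.47 (SE 0.177) and was 1.39-fold lower, at rank 561 from the lowest of 10103 genes. Lyz2 had a log2 fold change of 0.63 (SE 0.12) and was 1.55-fold higher, at rank 369 from the highest. The background was largest here, with 5.59% of genes higher and 4.66% lower and an SD of 0.35. These comparisons share libraries, as each condition enters 2 of them, and are not independent of each other. The log2 fold change of Lyz1 was below that of Lyz2 by -0.89 for GFP-TTP against GFP, by -1.99 for GFP-TTP-AA against GFP and by -1.10 for GFP-TTP-AA against GFP-TTP. The authors' model shrinks fold changes towards 0, and by how much for these genes cannot be read from the deposited values. The ranks and SDs above come from the same shrunken values, and how far shrinkage differs between genes was not examined.

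**Figure D4:**
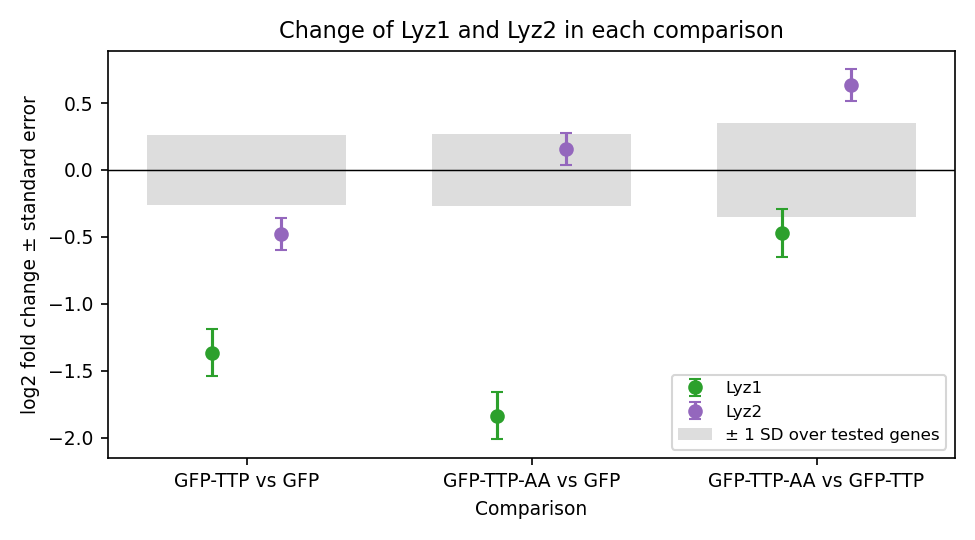
Log2 fold changes of Lyz1 and Lyz2 (y axis; bars, standard error from the authors' tables) in the 3 comparisons (x axis), first-named condition over second; grey boxes span 1 SD of the log2 fold changes of all genes tested on either side of 0. Lyz1 is below 0 in all comparisons, and Lyz2 goes from -0.48 to 0.63.

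The annotated 3′UTRs of Lyz1 (786 bases) and Lyz2 (790 bases) were searched on the mRNA strand for the motifs ATTTA and TATTTAT, of which the second contains the first, and hold 0 of either. In the first 786 bases of the 5568 3′UTRs of that length or longer among the genes kept, ATTTA was present in 64.7% and TATTTAT in 18.2%. This is a description of the sequence, and says only that these letters are not in this window.

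The surroundings of the genes were examined since Lyz1 and Lyz2 are neighbours. Within 1 Mb of them, 11 other genes passed the filter. With GFP-TTP-AA compared to GFP-TTP, 3 of the 11 were higher and 0 lower past the threshold (background 5.59% and 4.66%, Wald test with Benjamini-Hochberg adjustment over all genes tested). Yeats4 (chr10:117215221-117224507), a subunit of chromatin-modifying complexes and the closest of the 3, rose by 0.57 (SE 0.179, adjusted p = 0.0195). Rap1b (chr10:117813871-117846035), a small GTPase, rose from a level of 1676 to 2691, a log2 fold change of 0.68 (SE 0.122, adjusted p = 1.9e-06). Slc35e3, a transporter-like membrane protein, rose by 0.71 (SE 0.24, adjusted p = 0.0364).

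Rap1b was also the gene within 1 Mb that passed the threshold between GFP-TTP and GFP, where it fell by 0.51 (SE 0.122, adjusted p = 0.0035). Between GFP-TTP-AA and GFP, 0 of the 11 genes passed it by this test in either direction, and at an unadjusted p under 0.05 0.0 were higher and 2.0 lower. The log2 fold changes of the 11 genes ran from -0.51 to 0.08 for GFP-TTP against GFP, from -0.31 to 0.37 for GFP-TTP-AA against GFP and from -0.28 to 0.71 for GFP-TTP-AA against GFP-TTP. The values of Lyz1 were below these ranges in all 3 comparisons, and those of Lyz2 were inside them. Mdm2, the ubiquitin ligase of p53 and the most highly read neighbour, had log2 fold changes of -0.14, -0.05 and 0.09 in the same order.

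The median over chromosome 10 was also away from that over all genes in comparisons with GFP-TTP. Without the lysozymes, its 480 genes had a median log2 fold change of 0.17 when GFP-TTP-AA was compared to GFP-TTP, the highest of the 20 chromosomes compared (19 autosomes and X) and close to the 0.16 of chromosome 16, against 0.0032 over all genes, and 62 of the 480 were higher and 7 lower past the threshold (background 5.59% and 4.66%). For GFP-TTP against GFP the median was -0.12 over 474 genes, at rank 2 from the lowest. For GFP-TTP-AA against GFP it was 0.04 over 480 genes, at rank 5 from the highest. With the median of the chromosome subtracted, the log2 fold change of Lyz2 when GFP-TTP-AA was compared to GFP-TTP was 0.46, and those of Lyz1 were -1.25 for GFP-TTP against GFP, -1.87 for GFP-TTP-AA against GFP and -0.64 for GFP-TTP-AA against GFP-TTP. The part of the chromosome in the values of the lysozymes was not tested.

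**Figure D5:**
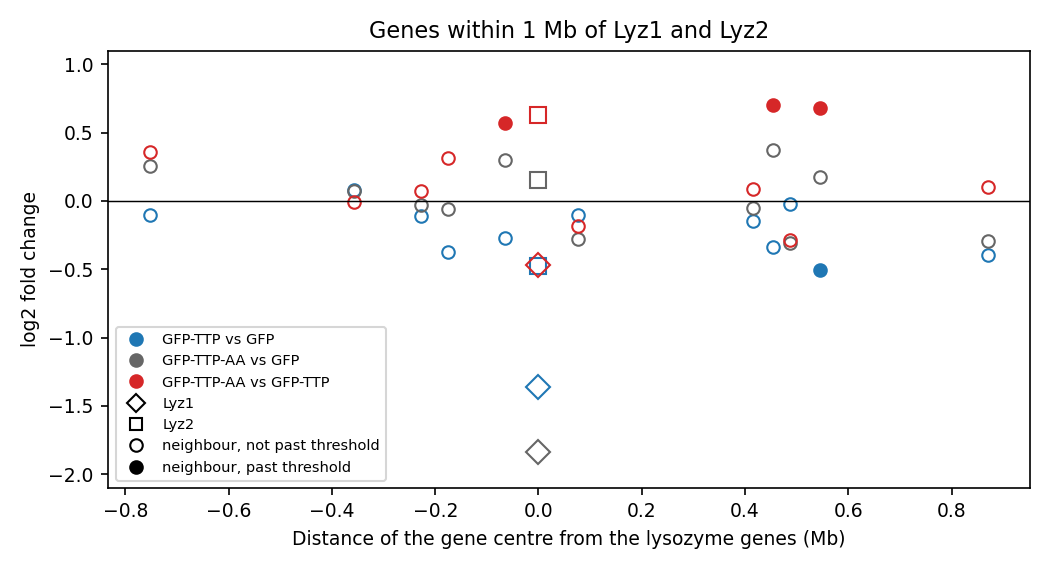
Log2 fold changes (y axis) in the 3 comparisons (colours) of the 11 kept genes within 1 Mb of the lysozyme genes, by the distance of their centre (x axis, Mb); circles are neighbours, filled where the adjusted p was under 0.05, and Lyz1 (diamonds) and Lyz2 (squares) stand at 0 without a test. Lyz1 lies below all neighbours in each comparison.

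The genes with the most similar pattern were sought among 8437 genes with a mean scaled count of at least 50, by the distance between the log2 levels of the 3 conditions after each gene was centred on its own mean. For Lyz2 the closest were Srd5a3 (an enzyme of dolichol synthesis), Mxd4 (a MAX partner that opposes MYC), Mif (macrophage migration inhibitory factor), H2-T24 (a non-classical MHC class I gene) and Rap1b, with distances between 0.02 and 0.04. Mif and Rap1b lie on chromosome 10 too. Mif had levels of 813 with GFP, 594 with GFP-TTP and then 895.5 with GFP-TTP-AA. Over 3 conditions a small distance is easily reached, and it is given as a description.

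For Lyz1 the distances were larger than for Lyz2. This distance is not scaled for the size of a change. Lyz1 was chosen on these values and had the lowest log2 fold change of all genes tested between GFP-TTP-AA and GFP. Large distances therefore follow from its choice and do not show a pattern of its own. The nearest were Osm (the cytokine oncostatin M), Dusp6 (a phosphatase of ERK), Mst1 (macrophage-stimulating protein), Ier3 (an immediate early gene) and Mylk (myosin light chain kinase), with distances between 0.62 and 0.74. Dusp6 had levels of 569 with GFP, 407 with GFP-TTP and then 219.9 with GFP-TTP-AA, and Ier3 had 1609, 1236 and 698. These genes follow the same order of conditions as Lyz1, which their choice by distance to its levels favours. Osm, Dusp6, Mst1 and Ier3 had their larger step from GFP-TTP to GFP-TTP-AA, with log2 fold changes of -0.89 for Dusp6 and -0.82 for Ier3, whereas the larger step of Lyz1 lay between GFP and GFP-TTP. The steps of Mylk were alike in size, with -0.46 for both.

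Other genes of antibacterial defence were counted next to the lysozymes. The lists used here and below were chosen with earlier results of these data known. Counts above the background can therefore come from that choice. Of 27 symbols for antimicrobial effectors of phagocytes, 19 were in the table and 14 were kept. With GFP-TTP-AA compared to GFP-TTP, 8 of the 14 were higher and 0 lower past the threshold (background 5.59% and 4.66%), with a median log2 fold change of 0.66 beside 0.0032 over all genes. Cybb, the catalytic subunit of the phagocyte NADPH oxidase, rose from a level of 3883 to 7798, a log2 fold change of 1.01 (SE 0.18, adjusted p = 2.0e-06, Wald test as above). Mpeg1, the pore-forming protein perforin-2, rose by 0.85 (SE 0.165), and Slc11a1, the phagosomal metal transporter NRAMP1, rose by 0.84 (SE 0.204). S100a8, a subunit of calprotectin, rose by 1.12 from a low level of 25.6, and Wfdc17 rose by 1.09. Slpi, an inhibitor of serine proteases, rose by 0.82 (SE 0.25, adjusted p = 0.0155).

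Between GFP-TTP-AA and GFP, 4 of the 14 effectors were higher and 0 lower past the threshold (background 1.74% and 1.28%), with a median of 0.40. Cybb rose by 0.79 (SE 0.18, adjusted p = 0.00135) and Mpeg1 rose by 0.70 (SE 0.165, adjusted p = 0.0022). Between GFP-TTP and GFP, 0 of the 14 passed this test, at an unadjusted p under 0.05 0.0 were higher and 1.0 lower, and 13 of the 14 had a negative log2 fold change with a median of -0.16. Capg, an actin-capping protein and the most highly read member, had log2 fold changes of -0.10 here, -0.11 for GFP-TTP-AA against GFP and -0.02 for GFP-TTP-AA against GFP-TTP. Lyz2, with log2 fold changes of -0.48 and 0.63 for GFP-TTP against GFP and for GFP-TTP-AA against GFP-TTP, had the signs of the medians of these genes, and Lyz1 had the opposite sign in both comparisons of GFP-TTP-AA.

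Of 16 symbols listed for the sensing and breakdown of peptidoglycan, with Irg1 and Acod1 naming the same gene, 11 were in the table and 9 were kept. In each comparison of GFP-TTP-AA, 1 of the 9 was higher and 1 lower past the threshold (background 1.74% and 1.28% against GFP, 5.59% and 4.66% against GFP-TTP). Hk2, a hexokinase that senses a sugar of peptidoglycan, fell by 0.79 against GFP (SE 0.152, adjusted p = 4.7e-05) and by 0.72 against GFP-TTP (SE 0.152, adjusted p = 0.00012). Slc15a3, a transporter of peptides and muramyl dipeptide in the endolysosome, rose by 0.67 against GFP (SE 0.174, adjusted p = 0.0078). Ripk2, the kinase downstream of NOD2, rose by 0.65 against GFP-TTP (SE 0.22, adjusted p = 0.036). Irg1 (Acod1) makes itaconate rather than sensing or cutting peptidoglycan, and was the most highly read gene on the list. It had levels of 4833, 4549 and 6939.9 in GFP, GFP-TTP and GFP-TTP-AA macrophages and passed the threshold in no comparison. Between GFP-TTP and GFP, 0 of the 9 passed this test in either direction, and at an unadjusted p under 0.05 1.0 were higher and 0.0 lower.

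Of 20 transcription factors of myeloid cells, 17 were kept. With GFP-TTP-AA compared to GFP-TTP, 3 of the 17 were higher and 0 lower past the threshold (background 5.59% and 4.66%), with a median of 0.26. Spi1, which encodes PU.1 and was the most highly read of them, rose by 0.36 (SE 0.117, adjusted p = 0.0245), Cebpe rose by 0.75 from a level of 12.5 and Tfe3 rose by 0.60. Between GFP-TTP-AA and GFP, 0 of the 17 passed this test in either direction, and at an unadjusted p under 0.05 6.0 were higher and 2.0 lower.

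Markers of macrophages were read in all libraries. Of 8 macrophage markers in the table other than Lyz2, 7 were kept, with Mertk at most at 5.82, and the summed scaled counts were between 31023 and 40689.7 in all libraries. Of the 7, 0 were higher and 2 lower past the threshold between GFP-TTP and GFP (background 0.815% and 1.29%), with log2 fold changes above 0 for 3 and below 0 for 4, and 2 were higher and 1 lower with GFP-TTP-AA compared to GFP-TTP (background 5.59% and 4.66%). At an unadjusted p under 0.05, 1 was higher and 2 were lower in the first of these comparisons. Emr1, which encodes F4/80, fell by 0.68 in the first (SE 0.16, adjusted p = 0.0027) and rose by 1.22 in the second (SE 0.16, adjusted p = 5.3e-12). Fcgr1 (CD64) fell by 0.95 in the first (SE 0.221, adjusted p = 0.0022) and rose by 0.72 in the second (SE 0.222, adjusted p = 0.0177). Ptprc (CD45) had a log2 fold change of 0.31 in the first and fell by 0.44 in the second (SE 0.139, adjusted p = 0.0205). Cd14, the LPS co-receptor and the most highly read marker, had log2 fold changes of 0.11 and 0.21. The markers thus did not move in 1 direction, and their part in the values of Lyz2 was not tested. Neutrophil markers, of which 7 of 13 symbols were in the table and S100a8 and Mmp8 were kept, summed to between 61.3 and 93.7 in GFP and GFP-TTP libraries and to between 97.6 and 150.6 in GFP-TTP-AA libraries. Mpo was at most at 0.13. Dendritic cell markers summed to at most 4.42, and B cell, T cell and fibroblast markers to at most 2.87. The summed fitted counts of the libraries ran from 2570292 to 12804501.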

How the data were processed

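RiboSeq libraries had been made by the authors with the ARTseq kit, depleted of rRNA and sequenced with single-end reads. Per the labels and the paper, reads were trimmed with Trim Galore, mapped with TopHat (2.0.12 in the submitters' processing notes, another version in the paper) to mm10, where a read could keep 2 alignments, and assigned to genes with HTSeq, whose settings are not given in the sources used here. The authors' deposited table named as normalized counts has a signal per gene and library that was checked here and found to be the count fitted by their DESeq2 1.6.3 model (size factor times fitted mean, with terms for condition and library date): after terms for library, condition and replicate number, the residual SD of the log2 values was 1.6e-15. From the authors' deposited comparison tables, the log2 standard error and the mean signal over all libraries were read. Their fold changes, Wald statistics, p-values and adjusted p-values were not used.

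Fitted counts were divided by size factors (median log ratio over genes with a mean of at least 10), which ran from 0.415 to 2.12. A level is the geometric mean over the 3 libraries of a condition. Genes with a mean scaled count of at least 10 were kept (10103 genes), of which those with a line in the comparison table were tested. The two-sided Wald p of each log2 fold change over its standard error was adjusted by the Benjamini-Hochberg method (threshold 0.05). Simulated data, with noise drawn from the same standard errors, checked the computation only and not whether these errors are right for the data. Nothing states that replicates were separate cultures, so that p-values measure only the spread between these libraries. Depth enters through the standard errors. Lyz1 had a mean of 1993 and Lyz2 of 60600.4 normalized counts in the authors' table. Sequences, positions and lengths are from the GENCODE annotation of GRCm38. Python 3.11.15 was used with numpy, pandas, scipy and matplotlib.

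The members and gene lists were chosen with earlier results of these data known. Named genes are the lysozyme family, Zfp36, the 5 genes most like each member, genes within 1 Mb, and from each list up to 6 members past the threshold with the largest changes and the most highly read one. A result that this rule names is not reported here. Alternatives were another scaling, a pseudocount of 10, the chromosome median, subtraction of Lyz2 from Lyz1, the sum of both, other filters and adjustment over all comparisons. The RNASeq and iCLIP data were not used here.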

Additional observations from a re-analysis of the deposited data

How the results depend on the processing

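The directions of the log2 fold changes of Lyz1 and Lyz2 were the same under scaling by library sums, a pseudocount of 10, subtraction of the median of chromosome 10, and size factors from all genes, which was chosen after seeing the data. Subtraction of that median gave 0.46 for Lyz2 between GFP-TTP-AA and GFP-TTP. With 0.5% of Lyz2 subtracted from Lyz1, the log2 fold change of Lyz1 was -2.41 for GFP-TTP-AA against GFP and -0.90 for GFP-TTP-AA against GFP-TTP. With 1% subtracted it was -1.71 for GFP-TTP against GFP, and GFP-TTP-AA gave no value, as replicate 1 went below 0. That these subtractions made the changes larger in size follows by construction, as Lyz1 was a smaller percentage of Lyz2 in the first-named condition. The sum of both genes, in which Lyz2 makes up nearly all footprints, had -0.51 for GFP-TTP against GFP, 0.10 for GFP-TTP-AA against GFP and 0.61 for GFP-TTP-AA against GFP-TTP, so that the direction of Lyz1 was turned in the comparisons of GFP-TTP-AA by construction. The numbers of genes past the threshold, 209, 305 and 1036 in the same order of comparisons, were between 173 and 272, 255 and 385, and 847 and 1072 under other filters and joint adjustment, and the counts of the 3 gene lists were the same without a filter.

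No paired analysis was possible because the deposited values are fitted and hold no residual spread between libraries. The authors' model already had a term for the library date, so that the fold changes and standard errors used here are adjusted for it. For the same reason the fits without single replicates were not run, and whether 1 library decides a value is not known.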
